A study of Mus musculus with 6 samples.

Results

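The genes described here are 10 markers of alveolar type I cells, namely Ager, Hopx, Pdpn, Cav1, Rtkn2, Akap5, Emp2, Clic5, Gprc5a and Timp3. They were chosen by symbol, and all probe sets that the platform annotation gives to these symbols alone were taken, which made 22 of 45037 probe sets. Each gene was also read once, from its probe set with the highest mean, as 10 of 18193 genes. All 10 genes were measured, and none was lost to a filter on low values.

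The values come from Affymetrix mouse arrays of whole left upper lung lobes of C57BL/6 mice aged 6 to 10 weeks. The first group is CC10-rtTA-IL13 transgenic (TG, 2 arrays), in which the CC10 promoter, active in airway club cells, drives rtTA, a doxycycline-dependent activator that switches on IL13, a cytokine of allergic airway disease. The second group is wild type (WT, 4 arrays). Both groups drank doxycycline at 2 mg/mL for 7 days, so both carry any effect of the drug. The promoter is one of airway club cells and not of the alveolar cells described here. The labels call the samples biological replicates, and each is 1 array. Array medians were 5.28 to 5.31 on the log2 scale of RMA (robust multi-array average), and the brightest value of each array was 15.10 to 15.19.

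Alveolar type I cells are the thin, very wide cells that cover most of the gas exchange surface of the lung. They share the alveolar wall with the cuboidal type II cells, which make surfactant and can divide and turn into type I cells after injury. Their flat shape rests on a broad cortical cytoskeleton, many caveolae and a basement membrane shared with the capillary. In a whole lobe, fewer type I cells and less RNA per type I cell cannot be told apart.

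Most of the type I cell genes were lower in TG lungs. In the gene fit (limma, Benjamini-Hochberg adjustment over all 18193 genes) 8 of 10 genes were lower at an adjusted p under 0.05, 0 were higher and 2 did not pass. At an unadjusted p under 0.05 in limma 9 were lower and 0 higher. Of all genes, 10.5% were lower by the same rule. All 10 genes are well measured, and of the 10451 genes with a mean log2 value of at least 6 the share lower was 16.2%. The median log2 difference of the 10 genes was -0.70, beside -0.0047 over all genes. With TG replicate 1 left out, which leaves a lone TG array, fewer of the 10 genes were called lower, as were fewer of all genes. For 9 of 10 genes both TG arrays lay below all WT arrays, which held for 22% of all genes and for 31.7% of the well measured ones. Both TG arrays lay above all WT arrays for 0 of the 10, and for 19.7% of all genes. No set test was run, and the members were chosen with results of these arrays known.

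**Figure D1:**
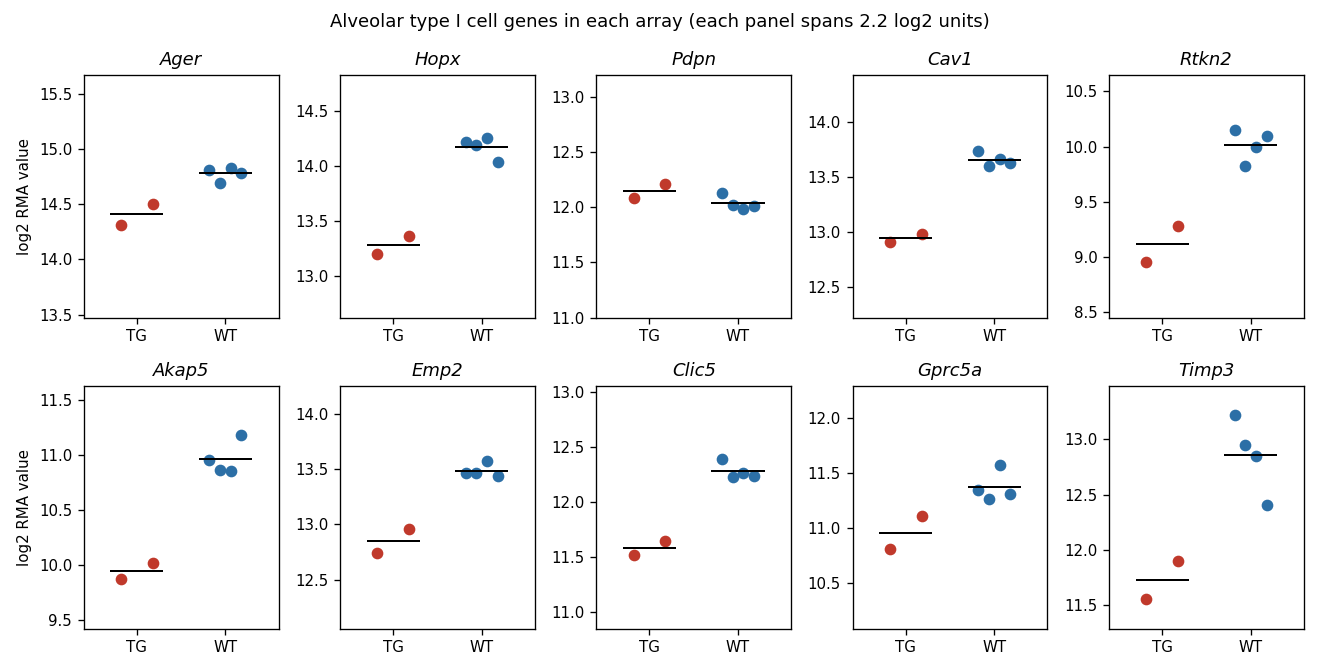
The log2 RMA value of each of the 10 genes is plotted for the 2 TG arrays (red, left) and the 4 WT arrays (blue, right), with a horizontal line at each group's mean. In 9 panels both TG points lie below all WT points, and for Pdpn the groups overlap.

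Upstream sequence is shown for 3 genes that fell, of which Clic5 and Timp3 hold a GC box and Ager holds none, and for Pdpn, which did not pass and holds none. RefSeq (GRCm38.p6) gave 10 promoter windows for 8 of the 10 genes. Each stretch is the last 100 bases before the start of the gene, 5′ to 3′ on the gene's strand. Capitals mark GC boxes, the letters GGGCGG or, on the other strand, CCGCCC, which transcription factors of the SP family bind.
Clic5, chr17:44188472-44188571, + strand: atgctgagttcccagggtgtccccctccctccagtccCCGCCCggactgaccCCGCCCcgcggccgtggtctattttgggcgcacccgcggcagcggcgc
Ager, chr17:34597750-34597849, + strand: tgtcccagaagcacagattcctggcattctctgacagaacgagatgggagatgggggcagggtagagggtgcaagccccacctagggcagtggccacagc
Timp3, chr10:86300312-86300411, + strand: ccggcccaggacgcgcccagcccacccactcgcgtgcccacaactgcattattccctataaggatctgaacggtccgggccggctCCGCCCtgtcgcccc
Pdpn, chr4:143299565-143299664, - strand: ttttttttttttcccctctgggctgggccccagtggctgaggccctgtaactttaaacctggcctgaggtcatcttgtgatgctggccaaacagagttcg

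In the 250 bases before the start, a GC box lay in 5 of the 10 windows, 1 window each for Akap5, Cav1, Clic5, Emp2 and Timp3, against 32.7% of the 32851 windows of all genes. The windows of Ager, Hopx and Pdpn and the other window of Cav1 held none. The median GC content was 58.6% in the 10 windows, against 52.4% in all windows, and the share of GC boxes was not compared at matched GC content. A TATA box (TATAAA or TTTATA) lay in 1 window, that of Cav1, against 12.4% of all windows. The letters GGAATG or CATTCC, the core that TEAD factors read, were in 0 of 10 windows, against 12.6% of all. The letters CAAGTG or CACTTG, a core of sites for NKX2-1, the lung epithelial transcription factor, were also in 0 of 10, against 11.6%. These 250 bases leave out distant enhancers, and the motifs do not overlap each other.

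Surface and signalling proteins come first. Ager encodes RAGE, a receptor of the immunoglobulin family that sits on the basolateral membrane of type I cells and binds S100 proteins, HMGB1 and glycated proteins. Its brighter probe set, 1441958_s_at, read 14.31 and 14.50 in the TG arrays, against 14.81, 14.69, 14.83 and 14.78 in WT arrays 1 to 4. Both TG arrays were below all WT arrays, and all 6 values were close to the top of the array, where a change can be compressed. The log2 difference was -0.37 ± 0.11 (moderated SE, n = 2 and 4), 1.29-fold lower, and passed by a narrow margin (adjusted p = 0.0499, limma). Leaving out any single array ended this call, with an adjusted p of 0.30 without TG replicate 1, 0.087 without TG replicate 2, and 0.11, 0.053, 0.11 and 0.069 without WT replicates 1 to 4.

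The dimmer Ager probe set, 1420428_at, read 12.82 and 13.04 in the TG arrays, against 13.65, 13.45, 13.56 and 13.47 in the WT arrays. Here the groups were again apart, and the difference of -0.60 ± 0.12 was 1.51-fold lower (adjusted p = 0.016 over all 45037 probe sets, limma).

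Pdpn encodes podoplanin, a mucin-like glycoprotein of the apical membrane of type I cells that binds the actin linkers ezrin and moesin. It read 12.08 and 12.21 in the TG arrays, against 12.13, 12.02, 11.99 and 12.01 in the WT arrays. The TG values straddled the highest WT value, that of WT replicate 1. The difference of 0.11 ± 0.11 did not pass (adjusted p = 0.53, limma), with a 95% interval of -0.13 to 0.35. Pdpn was the only one of the 10 with a difference above 0. Lymphatic endothelium, mesothelium and activated macrophages also express Pdpn.

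Gprc5a encodes an orphan receptor that retinoic acid induces. It read 10.81 and 11.11 in the TG arrays, against 11.35, 11.26, 11.57 and 11.31 in the WT arrays. Both TG values were below the WT range, but the difference of -0.41 ± 0.14 did not pass (adjusted p = 0.069, limma). Its 95% interval was -0.72 to -0.10.

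Membrane domain and channel proteins were lower. Cav1 encodes caveolin-1, the coat protein of caveolae, and read 12.91 and 12.98 in the TG arrays, against 13.74, 13.60, 13.66 and 13.62 in the WT arrays. The gap between the groups was several times the spread within either, and the difference of -0.71 ± 0.10 was 1.63-fold lower (adjusted p = 0.0026, limma). Emp2, a small membrane protein with 4 passes of the membrane that sorts integrins and caveolins, read 12.74 and 12.96 in the TG arrays, against 13.47, 13.47, 13.57 and 13.44 in the WT arrays. Its difference was -0.63 ± 0.11, 1.55-fold lower (adjusted p = 0.0062, limma), and without TG replicate 1 it was -0.52 and the call ended (adjusted p = 0.071).

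Clic5, a member of the chloride intracellular channel family that associates with ezrin and the cortical cytoskeleton, read 11.52 and 11.64 in the TG arrays, against 12.39, 12.23, 12.26 and 12.24 in the WT arrays. The TG arrays were again clear of the WT arrays. The difference was -0.70 ± 0.11, 1.62-fold lower (adjusted p = 0.0035, limma).

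Intracellular regulators were also lower. Hopx encodes a small homeodomain protein that does not bind DNA itself and acts as a transcriptional cofactor. It read 13.20 and 13.36 in the TG arrays, against 14.22, 14.18, 14.25 and 14.04 in the WT arrays, so the groups were far apart. The difference was -0.89 ± 0.11, 1.85-fold lower (adjusted p = 0.0014, limma). Akap5 encodes an anchoring protein that holds protein kinase A and calcineurin at the membrane. It read 9.87 and 10.02 in the TG arrays, against 10.95, 10.87, 10.86 and 11.18 in the WT arrays. The TG arrays lay about 1 log2 unit below the WT arrays, with a difference of -1.02 ± 0.13, 2.02-fold lower (adjusted p = 0.0013, limma).

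Rtkn2 encodes rhotekin 2 and is in use as a marker of alveolar type I cells. It read 8.95 and 9.28 in the TG arrays, against 10.15, 9.83, 9.99 and 10.10 in the WT arrays. The groups did not overlap, although both spread more than for Cav1 or Hopx. The difference was -0.90 ± 0.14, 1.87-fold lower (adjusted p = 0.0036, limma).

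Timp3, a metalloproteinase inhibitor bound to the extracellular matrix, showed the largest fall of the 10 and the widest WT spread. It read 11.56 and 11.90 in the TG arrays, against 13.22, 12.95, 12.85 and 12.41 in the WT arrays. WT replicate 4 lay nearest to the TG arrays. The difference was -1.13 ± 0.21, 2.19-fold lower (adjusted p = 0.0084, limma), and without TG replicate 1 it was -0.96 and the call ended (adjusted p = 0.094).

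When every probe set was fitted separately, 14 of 22 were lower at an adjusted p under 0.05 (limma, over all probe sets), 0 were higher and 8 did not pass. Of all probe sets 5.99% were lower and 5.39% higher by this rule, and of those with a mean log2 value of at least 6, 12.2%. In 19 of the 22 both TG arrays were below all WT arrays, which held for 17.2% of all probe sets. In 0 both were above all WT arrays, which held for 17.5% of all probe sets. With TG replicate 1 left out, which leaves a lone TG array, fewer of the 22 were called lower, as were fewer of all probe sets. Probe sets of a gene share the same RNA and are not replicates of each other.

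Probe sets of a gene pointed the same way. All 3 of Akap5 and both of Hopx passed. Of the 2 Ager probe sets the dimmer passed, and the brighter, 1441958_s_at, which gave the gene its call, did not in this fit (adjusted p = 0.074, limma). The largest fall of any was that of the Akap5 probe set 1431717_at, which read 6.27 and 6.68 in the TG arrays, against 7.94, 8.21, 7.76 and 7.46 in the WT arrays (log2 difference -1.37 ± 0.21, adjusted p = 0.0046, limma). For Emp2, 2 of 3 probe sets passed, and 1425272_at overlapped between the groups (-0.45 ± 0.19). For Clic5, 2 of 4 passed, with -1.01 ± 0.14 for 1439505_at. The other Clic5 probe sets were 1458381_at (-0.47 ± 0.16) and the dim 1431261_at (-0.63 ± 0.18), which averaged 4.81 in TG and 5.45 in WT arrays, near the array median.

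Of the 4 Timp3 probe sets 2 passed, 1419089_at and 1449335_at (-1.0 ± 0.16). The remaining ones were 1449334_at (-0.97 ± 0.27, adjusted p = 0.055) and 1419088_at (-0.72 ± 0.24, adjusted p = 0.095), whose WT replicate 4 read 6.97, below the 7.00 of TG replicate 2. In the authors' deposited table the q-value was under 0.05 for 2 of the 22 probe sets, those of Cav1 (0.0212) and Akap5 1436142_at (0.0453), both lower. By the authors' deposited table, lower values at that q-value were found for 0.737% of all probe sets.

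**Figure D2:**
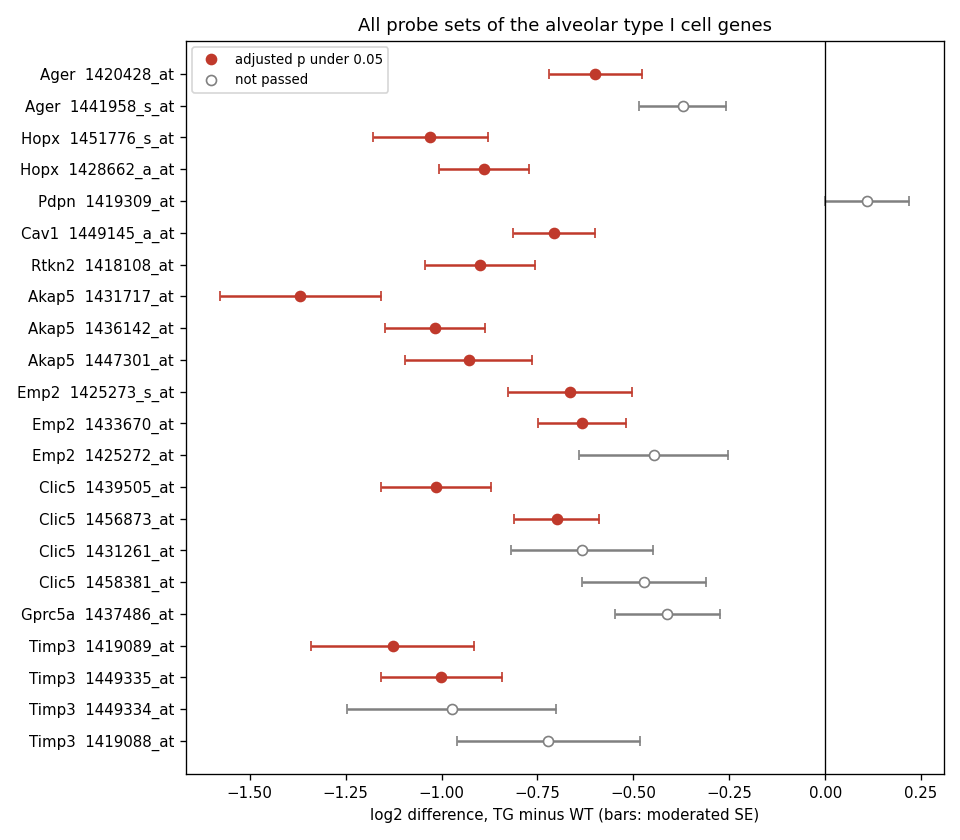
Each of the 22 probe sets is plotted at its log2 difference, TG minus WT, with bars for the moderated SE, filled red where the adjusted p over all probe sets was under 0.05. Apart from the single Pdpn probe set at 0.11, all lie below 0, between -0.37 and -1.37.

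The members also differed between the TG arrays. TG replicate 1 read below TG replicate 2 for 10 of 10 genes, Pdpn included. Averaged over the 10 genes, each centred on its own mean, the level was -0.54 in TG replicate 1 and -0.34 in TG replicate 2, against 0.30, 0.17, 0.24 and 0.17 in WT replicates 1 to 4. WT replicate 2 was the lowest WT array for 5 of 10 genes and WT replicate 1 the highest for 5 of 10.

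Of 22 other measured markers of type I cells, from a list written from general knowledge, 13 were lower, 1 was higher and 8 did not pass, with a median log2 difference of -0.60. With either TG array left out, which leaves a lone TG array, fewer of these markers were called lower, as were fewer of all genes. Scel, which encodes sciellin, read 10.16 and 10.24 in the TG arrays, against 11.71, 11.44, 11.49 and 11.62 in the WT arrays. It was 2.57-fold lower (-1.36 ± 0.12, adjusted p = 1.7e-04, limma). Igfbp2, an insulin-like growth factor binding protein of mature type I cells, was lower by a log2 difference of -1.19 ± 0.17, and Limch1, an activator of non-muscle myosin, by -0.996 ± 0.146.

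The water channel gene Aqp5, a classical type I marker that is named here after its values were seen, read 10.85 and 10.77 in the TG arrays, against 11.09, 11.19, 11.79 and 11.72 in the WT arrays. Its TG values were below the WT range, but the difference of -0.64 ± 0.21 did not pass (adjusted p = 0.070, limma). Itgb6, the epithelial integrin chain that activates TGF-beta, went the other way. It read 7.28 and 6.64 in the TG arrays, against 5.95, 5.77, 6.27 and 6.11 in the WT arrays (0.93 ± 0.20, adjusted p = 0.015, limma), and without TG replicate 1 its call ended at 0.61 (adjusted p = 0.13).

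Type I cell fate depends on YAP and TAZ, the mechanosensitive cofactors of TEAD transcription factors, which the LATS kinases restrain. The list of 13 fate regulators held genes of this pathway and also the transcription factor genes Gata6, Nkx2-1, Foxa2 and Klf5. Of the 13 genes 7 were lower, 0 were higher and 6 did not pass, with a median log2 difference of -0.64. Gata6, named after its values were seen, was among the 7 (-0.55 ± 0.14, adjusted p = 0.027, limma). With either TG array left out, fewer of the 13 were called lower, as were fewer of all genes. Yap1 read 9.24 and 9.20 in the TG arrays, against 10.03, 9.99, 10.02 and 9.84 in the WT arrays (-0.75 ± 0.11, adjusted p = 0.0024, limma). The YAP target Ccn2 was lower by a log2 difference of -1.07 ± 0.18 (adjusted p = 0.0051, limma). Ccn1 of the same list, named after its values were seen, overlapped between the groups and did not pass (-0.77 ± 0.76, adjusted p = 0.54, limma).

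Lats2 (-0.79 ± 0.14) and Tead1 (-0.73 ± 0.17) were lower too, but without TG replicate 1 their calls ended (adjusted p = 0.083 and 0.16, limma). Nkx2-1, named after its values were seen, did not pass (-0.10 ± 0.16, adjusted p = 0.72, limma). It was dim at 5.62 and 5.86 in the TG arrays, against 5.86, 6.10, 5.81 and 5.58 in the WT arrays. These values are near the array medians of 5.28 to 5.31, so a change could be missed. Most of these genes are active in many lung cell types besides type I cells.

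Partners of the members moved in part. Of 7 measured caveola genes other than Cav1, 3 were lower, 0 were higher and 4 did not pass. They were Cavin2 (-1.02 ± 0.14), Cavin1 (-0.94 ± 0.15) and Cav2 (-0.85 ± 0.10), which encode coat proteins that assemble with caveolin-1. Cav2 read 12.41 and 12.45 in the TG arrays, against 13.33, 13.23, 13.22 and 13.35 in the WT arrays, and the count stayed at 3 when any single array was left out.

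Of 8 measured RAGE ligand and partner genes 0 were lower, also at an unadjusted p under 0.05 in limma, and 2 were higher, where 8.43% of all genes were higher. S100a1 read 12.32 and 12.07 in the TG arrays, against 10.81, 10.79, 10.59 and 10.73 in the WT arrays, a rise of 1.46 ± 0.12 (adjusted p = 1.5e-04, limma). S100a4 was higher by 0.99 ± 0.26, and its call ended without TG replicate 1 (adjusted p = 0.24), TG replicate 2 (0.072), WT replicate 1 (0.067) or WT replicate 3 (0.073, limma).

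Of 7 measured podoplanin partners 2 were higher and 1 was lower. The hyaluronan receptor gene Cd44, whose product binds podoplanin, read 11.58 and 11.90 in the TG arrays, against 10.28, 10.27, 10.39 and 10.59 in the WT arrays (1.36 ± 0.14, adjusted p = 5.0e-04, limma). The tetraspanin gene Cd9 was higher by 0.72 ± 0.16 and the actin linker gene Rdx lower by a log2 difference of -0.59 ± 0.13. Without TG replicate 1 the calls of Cd9 and Rdx ended (adjusted p = 0.085 and 0.10, limma), as they did without TG replicate 2 (0.10 and 0.069).

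Family relatives of the members did not share one direction. Of 14 genes 4 were lower, 2 were higher and 8 did not pass, with a median log2 difference of -0.05. With either TG array left out, fewer of the 14 were called lower, as were fewer of all genes. Timp1, the inducible relative of Timp3, read 10.54 and 9.75 in the TG arrays, against 6.82, 7.00, 7.49 and 7.77 in the WT arrays. It was 7.32-fold higher (2.87 ± 0.30, adjusted p = 4.9e-04, limma), while Timp3 was lower. Emp3, a relative of Emp2, was higher by 0.93 ± 0.16, with its call lost without TG replicate 1 (adjusted p = 0.074, limma). Clic3 was lower by a log2 difference of -0.91 ± 0.14 and Gprc5b by -0.84 ± 0.12.

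Among 9 measured genes of proteins that act with AKAP5 or rhotekins, 1 was lower and 1 was higher. The calcineurin gene Ppp3ca was lower by a log2 difference of -0.57 ± 0.13 and the small GTPase gene Rhoc was higher by 0.61 ± 0.16. Without TG replicate 1 neither passed (adjusted p = 0.16 and 0.15, limma), and the call of Rhoc also ended without TG replicate 2 (0.14) or WT replicate 3 (0.055).

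The neighbouring type II cell markers gave other counts than the type I genes. Of 11 type II markers 0 were lower, 2 were higher and 9 did not pass, with a median log2 difference of 0.06 (0 lower and 3 higher at an unadjusted p under 0.05 in limma). Without any single array 1 was higher. The surfactant collectin gene Sftpd read 14.50 and 14.50 in the TG arrays, against 13.80, 13.81, 13.73 and 13.66 in the WT arrays (0.75 ± 0.10, adjusted p = 0.0021, limma). The fatty acid transporter gene Cd36, which is also expressed by macrophages and endothelium, was higher by 0.37 ± 0.10, and its call ended without any single array, with adjusted p-values of 0.055 to 0.24. Sftpc, named after its values were seen, differed by 0.02 ± 0.10, at values of 15.07 to 15.19 at the top of the array.

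General epithelial markers had 1 of 10 lower, 0 higher and 9 not passed, with a median log2 difference of -0.14 (1 higher at an unadjusted p under 0.05 in limma). The gene that passed was the keratin gene Krt18 (-0.45 ± 0.12), and leaving out either TG array or WT replicate 1, 2 or 3 ended its call (adjusted p = 0.061, 0.25, 0.094, 0.063 and 0.085, limma). The difference between the type I genes and the type II or general epithelial lists was not itself tested.

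Transitional alveolar epithelium, a state that type II cells pass on the way to type I cells after injury, is known by genes such as Cldn4, Krt8 and Lgals3. Of 11 measured genes of this list 4 were higher, 1 was lower and 6 did not pass, and 2 were higher without TG replicate 1. The lower gene was Krt18. The galectin gene Lgals3, also abundant in macrophages, read 14.01 and 14.07 in the TG arrays, against 11.85, 11.79, 12.00 and 12.24 in the WT arrays (2.07 ± 0.14, adjusted p = 5.2e-05, limma). The urokinase receptor gene Plaur was higher by 1.11 ± 0.16.

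The tight junction gene Cldn4, dim at 5.96 and 5.67 in the TG arrays, against 4.72, 5.14, 5.13 and 4.74 in the WT arrays, was higher by 0.88 ± 0.17, and its call ended without TG replicate 1 (adjusted p = 0.097, limma). Itgb6 is on this list too. Krt8, named after its values were seen, did not pass (-0.17 ± 0.13, adjusted p = 0.43, limma).

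Several of the 10 genes are also expressed outside type I cells, Cav1, Emp2, Clic5 and Timp3 in endothelium, Timp3 in fibroblasts, Cav1 in fat and Hopx in heart muscle. Of 16 endothelial markers 9 were lower, 1 was higher and 6 did not pass, with a median log2 difference of -0.80. With either TG array left out, fewer of the 16 were called lower, as were fewer of all genes. Their summed linear level was 13680 to 15493 in the TG arrays, against 19957 to 27656 in the WT arrays. The endothelin receptor gene Ednrb (-1.60 ± 0.20) and the angiopoietin receptor gene Tek (-1.31 ± 0.16) were among them. Ramp2 (-1.52 ± 0.42) and Eng (-1.18 ± 0.25) were lower as well, but without TG replicate 1 neither passed (adjusted p = 0.28 and 0.10, limma), and nor did they without TG replicate 2 (0.071 and 0.073). Leaving out WT replicate 1 or 3 also ended the call of Ramp2 (0.090 and 0.078).

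Of 11 fibroblast markers 5 were lower and 1 was higher (median -0.83), with a summed linear level of 14554 to 17496 in the TG arrays, against 13104 to 21125 in the WT arrays. Of 5 lymphatic endothelial markers 3 were lower (summed level 1701 to 2574, against 3994 to 5650 in the WT arrays). With either TG array left out, fewer lymphatic markers were called lower, as were fewer of all genes. Of 6 mesothelial markers 0 passed, with 2 lower at an unadjusted p under 0.05 in limma (summed level 2788 to 5474, against 3710 to 8637 in the WT arrays). None of the endothelial, fibroblast or mesothelial markers was below the array median on all 6 arrays. The part of these cell types in the values of Cav1, Emp2, Clic5, Timp3 and Pdpn was not tested. Nor was their part in the values of the caveola genes Cav2, Cavin1 and Cavin2.

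Macrophage markers had 8 of 10 higher and 1 lower (median 2.27). Their summed linear level was 19345 to 19799 in the TG arrays, against 4815 to 4925 in the WT arrays. The part of macrophages in the rises of Cd44, Cd9, S100a4, Emp3, Timp1 and Plaur was not tested, nor was their part in the values of Pdpn. Arrays were scaled to like distributions, so a larger share of RNA from one cell type lowers the share left for the others, and the part of this in the type I genes was not tested. On the same arrays the median log2 difference was 0.06 for type II and -0.14 for general epithelial markers. It was -0.80 for endothelial, -0.83 for fibroblast, -0.62 for lymphatic endothelial and -0.56 for mesothelial markers.

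Heart muscle markers had 5 of 8 lower (1 without TG replicate 2 or WT replicate 1, and 2 without WT replicate 3), with a summed linear level of 328.2 to 1928 in the TG arrays, against 3125 to 13673 in the WT arrays. Of 6 adipose markers 3 were lower (1 without TG replicate 2 or WT replicate 1, and 5 without WT replicate 2), with a summed linear level of 4339 to 6292 in the TG arrays, against 3615 to 16610 in the WT arrays. The median log2 difference was -2.89 for the heart muscle markers and -2.90 for the adipose markers. The atrial and ventricular myosin gene Myh6 read 8.08 in TG replicate 1 and 4.10 in TG replicate 2. The part of heart muscle and fat in the values of Hopx and Cav1 was not tested. Without WT replicates 2 and 4 together, 7 of the 10 type I genes were lower, the call of Ager being lost (adjusted p = 0.086, limma). This setting did not take heart muscle or fat out of the comparison. The log2 difference there was -3.55 ± 1.09 for Myh6 and -4.50 ± 1.57 for the adipose marker gene Car3, against -3.71 and -4.52 on all arrays. Neither passed in this setting (adjusted p = 0.071 and 0.10, limma). Leaving out 1 array at a time gave -1.60 to -7.45 for Car3.

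**Figure D3:**
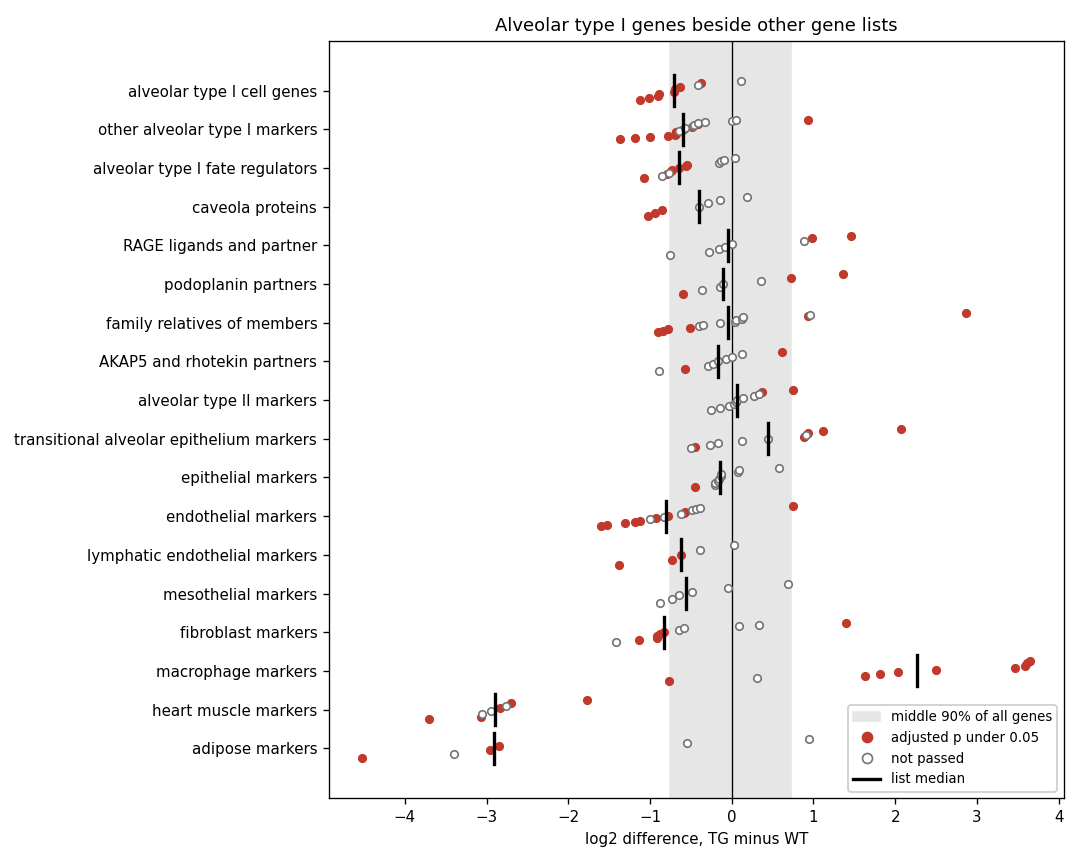
Each point is a gene at its log2 difference, TG minus WT, in the list named on the left, filled red where the adjusted p over all genes was under 0.05, with a black bar at the list median and a grey band over the middle 90% of all genes. The medians are -0.70 for the 10 type I cell genes, -0.60 for the other type I markers, 0.06 for type II markers, -0.14 for general epithelial markers and 2.27 for macrophage markers. They are -0.80 for endothelial, -0.83 for fibroblast, -2.89 for heart muscle and -2.90 for adipose markers.

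The genes whose pattern over the 6 arrays was most like the mean of the 10 members, among 10441 others with a mean log2 value of at least 6, were Clec1a, Tshz2, Ccdc85a, Bmyc and Nfia. Pearson's r was 0.996 to 0.997 over 6 arrays of 2 genotypes, so it rests mainly on the gap between the genotypes and is a description only. Clec1a, which encodes a C-type lectin-like receptor, read 8.47 and 8.83 in the TG arrays, against 9.87, 9.65, 9.90 and 9.74 in the WT arrays. The transcription factor gene Nfia read 9.22 and 9.35 in the TG arrays, against 10.16, 10.01, 10.04 and 10.00 in the WT arrays. All 5 were lower in TG lungs, by log2 differences between -0.46 and -1.27.

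**Figure D4:**
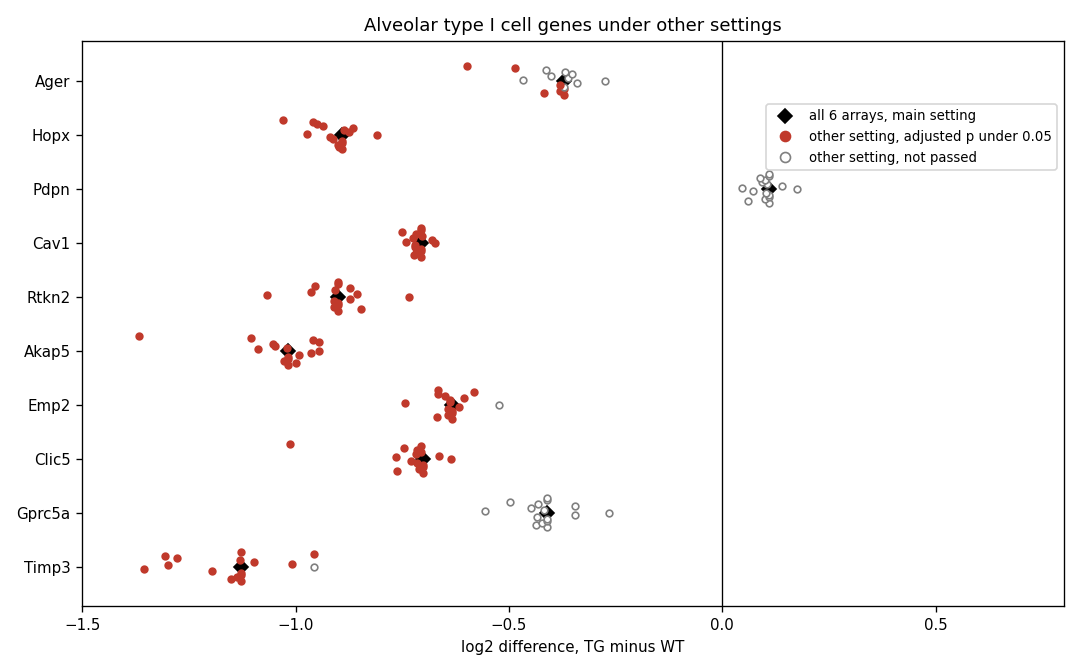
For each of the 10 genes the log2 difference, TG minus WT, is plotted with all arrays (black diamond) and under 16 other settings (circles), filled red where the adjusted p was under 0.05. Hopx, Cav1, Rtkn2, Akap5 and Clic5 passed under all 16, Emp2 and Timp3 under 15, Ager under 7, and Pdpn and Gprc5a under 0.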

How the data were processed

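The authors deposited log2 values made with RMA, per the submitters' processing notes, which give no version. They also deposited a table with a log2 fold change and a q-value per probe set, per the file headers, whose test no source used here gives. That fold change equals the difference of the group means, TG minus WT. Its 6 single-array columns match no sample label and were not used.

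Symbols came from the platform annotation, updated by Entrez ID. Probe sets with 1 symbol (34945 of 45037) gave 18193 genes, each read from the probe set of highest mean. The comparison of TG with WT used lmFit and eBayes of limma 3.58.1 (R 4.3.3), which leaves 4 residual degrees of freedom. P-values were adjusted over the whole table by the Benjamini-Hochberg method, and the threshold was 0.05. Errors are moderated SE. The number of arrays limits the precision. The pipeline was tested on simulated data, with a pass mark set only for changes larger than those of the members.

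The members, lists and tests were chosen with earlier results of these data known. Named are all members and the 5 genes most like the members. Names from the lists were drawn from up to 4 genes with the largest passing change, or the largest change where none passed. Not every such gene is named. For the fibroblast, lymphatic endothelial, mesothelial and macrophage lists only values of the whole list are given. Other genes are marked. Genes on probe sets shared with other symbols were not analysed here. Figures used matplotlib 3.10.9 in Python 3.11.15.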

Additional observations from a re-analysis of the deposited data

Results flagged for a closer look

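In 5 of the 73 sets of 4 WT values examined, 1 array stood apart from the other WT arrays by more of the whole range than the 95% critical value of Dixon's test allows. About 1 in 20 would do so by chance. The dim Clic5 probe set 1431261_at read 5.85 in WT replicate 3, a gap of 0.877 of the range from the other WT values of 5.28 to 5.35. Cavin1 read 10.89 in WT replicate 2 (gap 0.844), below the others at 11.26 to 11.33. Ppp3ca read 11.29 in WT replicate 1 (gap 0.846), above the others at 11.03 to 11.07. WT replicate 4 was low for Plaur at 7.72 (gap 0.882) and for Tek at 10.82 (gap 0.923).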

How the results depend on the processing

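Under the 16 alternatives no member gene changed direction. Of 160 values, 149 stayed on the same side of the threshold and 11 lost their call, 9 of them of Ager. Leaving out 1 array at a time gave 5 to 7 lower member genes, 3 to 16 lower member probe sets and 6 to 16 lower genes among the other type I markers. The lowest of these came without TG replicate 1, when the lone TG array is assumed to vary like the WT arrays and 580 of all genes were lower, against 1914. Other settings gave 7 or 8 lower member genes.

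Replicate numbers are shared by the groups, but 2 pairs are too few to show a pairing (correlation of the replicate 1 minus 2 differences 0.17 across 18193 genes). With the replicate block only replicates 1 and 2, present in both groups, bear on the difference. There 7 member genes, 16 member probe sets and 13 other type I markers were lower. The call of Ager ended (adjusted p = 0.14, limma). In this setting 3608 of all probe sets were lower, against 2699 in the main fit, and 2150 of all genes, against 1914. Robust moderation also ended the call of Ager (adjusted p = 0.0509). With 2 TG arrays, small differences such as that of Gprc5a (-0.27 to -0.56 over the alternatives) cannot be settled. Among other genes named in the text, reading the most variable probe set ended the calls of Rdx (adjusted p = 0.30), Krt18 (0.058), Ednrb (0.064) and Gprc5b (0.065). Averaging probe sets ended those of Cd36 (0.12) and Tead1 (0.054). Robust moderation ended those of Ramp2 (0.067), Myh6 (0.088) and Car3 (0.14, limma). The replicate block (0.083) and a further quantile normalization (0.090) ended that of Cd36.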
